A study of Mus musculus with 6 samples.

Results

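Matricellular and elastic fibre proteins were followed through 9 genes of cultured mouse hepatic stellate cells, Postn, Tnc, Sparc, Thbs1, Fn1, Eln, Fbn1, Fbln2 and Fbln5. They were listed by name, with no cut on a measured value but with earlier results of these data known, and all 9 were among the 13341 gene rows measured. Messenger RNA was sequenced in 3 libraries labelled Nbr1 knock-out (Nbr1KO) and 3 labelled wild type (WT). Cells of both genotypes were kept for 4 days in DMEM with 10% serum, glutamine and antibiotics, with no other treatment, and libraries were built from 200 ng of RNA. Nbr1 encodes an autophagy cargo receptor, a relative of p62, which is the product of Sqstm1. How the allele was made, which cells carry it, the age of the animals, and whether the 3 libraries of a genotype came from separate animals are not given in the labels. The p-values below therefore measure the spread between these libraries. Values are normalized read counts, a count of reads at the 3' end of a gene's transcripts divided by a scaling factor of the library. Because the kit reads only that end, values do not grow with transcript length, and levels of different genes are compared on that per-transcript-end scale.

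Hepatic stellate cells are the pericyte-like cells of the liver sinusoid that store vitamin A, and in injury or on culture plastic they turn into matrix-producing myofibroblasts. Matricellular proteins are secreted into the matrix but act mainly by tuning how cells attach and receive signals, and several are low in resting tissue and made during repair. Elastic fibres consist of a core of cross-linked elastin laid on a scaffold of fibrillin microfibrils, with fibulins joining elastin, microfibrils and the cross-linking lysyl oxidases. In scarred liver, elastin accumulates in late, poorly degraded septa.

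Promoter sequence is shown for periostin (Postn) and fibulin-5 (Fbln5), which had the smallest adjusted p of the 9. Each window is the 250 bases before a RefSeq start on the gene's own strand, 5' to 3', in build GRCm38.p6. It lies at chr3:54360857-54361106 on the plus strand for Postn and chr12:101818485-101818734 on the minus strand for Fbln5. Both genes have another RefSeq window, which held no match to any motif counted below. The window printed was picked because it held a match. Capitals mark a TATA box (TATAAA) in Postn and a SMAD-type element (CAGACA) in Fbln5.
Postn: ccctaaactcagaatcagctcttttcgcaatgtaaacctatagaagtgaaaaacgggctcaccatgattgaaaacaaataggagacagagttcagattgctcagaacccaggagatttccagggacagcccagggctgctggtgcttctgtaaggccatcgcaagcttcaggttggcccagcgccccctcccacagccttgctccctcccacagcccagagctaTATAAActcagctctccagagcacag
Fbln5: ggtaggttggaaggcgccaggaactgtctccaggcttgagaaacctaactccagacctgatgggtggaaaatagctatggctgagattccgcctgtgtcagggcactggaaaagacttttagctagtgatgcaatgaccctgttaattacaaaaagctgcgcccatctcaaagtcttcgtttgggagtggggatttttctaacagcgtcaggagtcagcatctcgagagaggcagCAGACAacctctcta
RefSeq held windows of 300 bases, 250 before and 50 after the start, for 6 of the 9 genes, 9 windows in all. Fn1, Thbs1 and Eln are named only. TATAAA, searched on both strands, was present in 3 of the 9 windows, those of Postn and Tnc, against 13.6% of all 32851 mouse windows. GTCTAGAC or CAGACA was present in 4 of the 9 windows, those of Fbln5, Sparc and Tnc, against 21.2% of all windows. The TEAD-type GGAATG was present in 0 of the 9 windows against 14.7% of all, and the AP-1-type TGANTCA in 0 of the 9 against 7.81%. Both windows of Tnc overlap and share matches. Which start the cells used was not measured, and a match is a description of these letters only.

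Depth was 1508518 to 2383879 recovered reads per library. The libraries did not fall into the 2 labelled groups alone. WT library 1 correlated with WT libraries 2 and 3 at r = 0.857 and 0.856 across genes, while those correlated with each other at 0.984. Nbr1KO libraries 1 and 3 correlated at 0.981, and Nbr1KO library 2 with them at 0.946 and 0.924. Deviations from the group means put Nbr1KO libraries 1 and 3 with WT library 1 (set A below) and Nbr1KO library 2 with WT libraries 2 and 3 (set B). The labels name no batch, so these sets come from the data, and values within them are given beside the results. A fit with a term for the sets reuses the values that defined them. Its adjusted p-values below are therefore a description and support no call. The label check was incomplete. Nbr1 had 204, 188 and 176 normalized counts in Nbr1KO libraries 1 to 3, against 204, 278 and 289 in WT libraries 1 to 3 (limma log2 change -0.43, SE 0.18, adjusted p = 0.220), and a read at the 3' end cannot show a deletion elsewhere in the gene. Sqstm1, which no label mentions as altered, had 817, 645 and 859 normalized counts in the libraries labelled Nbr1KO, against 24.0, 10.9 and 12.7 in those labelled WT (48.7-fold, limma adjusted p = 0.000337). The genotypes may therefore be other than labelled, which these values do not settle, and every direction below rests on the labels as given.

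Of the 9 genes, all 9 were abundant enough to test, 3 rose in the libraries labelled Nbr1KO, 0 fell and 6 did not pass. Postn, Eln and Fbln5 were those that rose. Postn met the filter, a value of 10 in 3 or more libraries, only through the Nbr1KO libraries, since none of its WT values reached 10. That it was tested thus depended on the group where it is high. With no filter its log2 change was 5.76 (limma adjusted p = 0.000248). The test was limma on log2(value + 1) over 10540 genes, with Benjamini-Hochberg adjustment over all of them at 0.05. It called 4.67% of all tested genes higher and 2.25% lower in the Nbr1KO libraries. The 0 lower calls held in edgeR and DESeq2 on recovered reads, and 0 of the 5 members with an unadjusted p under 0.05 were lower. In 5 of the 9 genes (Postn, Tnc, Eln, Fbln2 and Fbln5) every Nbr1KO library was above every WT library, against 16.5% of all tested genes, and in 0 of the 9 was every Nbr1KO library below every WT library, against 13.6%. The estimated log2 change was positive for 7 of the 9 genes with a median of 0.60, while over all tested genes it was positive for 48.9% with a median of -0.01. These cultures were measured in bulk, so fewer cells of a type and less RNA per cell cannot be told apart. With 3 libraries against 3, an exact permutation test of a single gene cannot go below p = 0.1, and none is given.

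**Figure D1:**
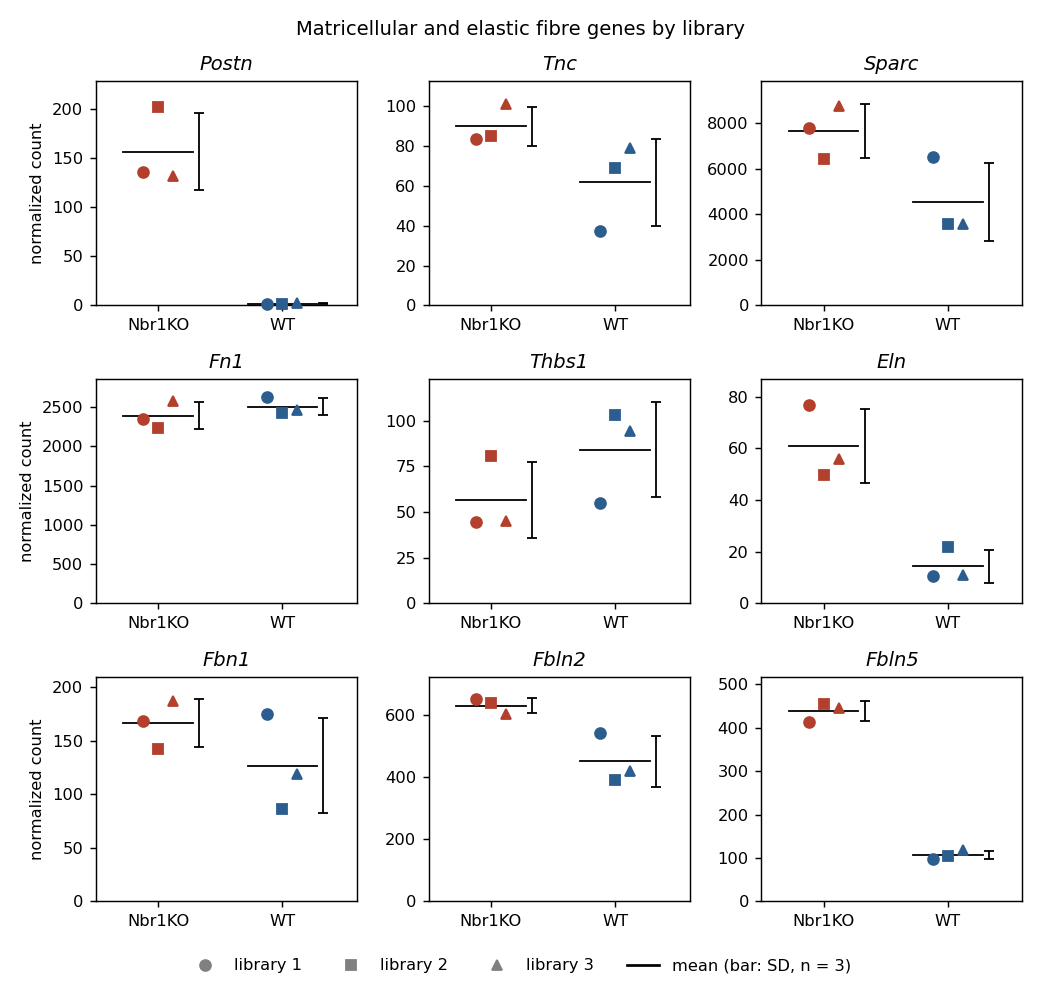
Normalized read counts (vertical linear axes from 0, one scale per gene) of the 9 genes in each of the 6 libraries, with Nbr1KO left of WT. Points are libraries 1 to 3, long lines group means and vertical bars the SD (n = 3 each). Postn, Eln and Fbln5 separate most widely by fold, and WT library 1 lies near the Nbr1KO libraries for Sparc and Fbn1.

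Periostin (Postn, chromosome 3), a matricellular protein made by activated fibroblasts that binds integrins and helps collagen cross-linking, showed the widest difference of the 9. It had 136, 201.1 and 132 normalized counts in Nbr1KO libraries 1 to 3, against 1.33, 1.68 and 2.72 in WT libraries 1 to 3. The WT values stand for 1, 2 and 3 reads, so the gene was at the edge of detection in every WT library and well measured in every Nbr1KO library. The means were 156 ± 38.9 in Nbr1KO and 1.91 ± 0.724 in WT (SD, n = 3 each), and 495 reads against 6 gave a ratio of 80.7 with an exact 95% counting interval of 36.8 to 221. On the log2(value + 1) scale, which understates a change from so low a level, Postn rose by 5.76 (SE 0.30, limma adjusted p = 0.000337). The difference was as wide within each library set, 5.85 in set A and 5.9996 in set B on that scale.

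Tenascin-C (Tnc, chromosome 4), a large glycoprotein that appears in wounds and loosens cell adhesion to fibronectin, had 83.3, 85.1 and 101 normalized counts in Nbr1KO libraries 1 to 3, against 37.4, 68.9 and 79.0 in WT libraries 1 to 3. The groups did not overlap, but the highest WT library came close to the lowest Nbr1KO library. The means were 89.7 ± 9.67 in Nbr1KO and 61.7 ± 21.7 in WT (SD, n = 3 each), and the log2 change was 0.60 with a 95% interval of -0.12 to 1.31 (limma adjusted p = 0.308). Within set A it was 1.27 and within set B 0.20. Without WT library 1 the log2 change of Tnc was 0.27 (limma adjusted p = 0.276). With a term for the library sets, drawn from these same values, it was 0.74 (limma adjusted p = 0.0490).

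SPARC (Sparc, chromosome 11), also called osteonectin, binds collagen and helps procollagen processing. It was by far the most abundant of the 9, the 6th, 8th and 6th highest of 13341 genes in Nbr1KO libraries 1 to 3, and the 13th, 25th and 27th in WT libraries 1 to 3. Its normalized counts were 7775, 6423 and 8738 in the Nbr1KO libraries, against 6524, 3562 and 3565 in the WT libraries. WT library 1 was above Nbr1KO library 2, so the groups overlapped, while WT libraries 2 and 3 were the lowest of the 6. The log2 change was 0.80 (SE 0.26, 95% interval 0.17 to 1.42, limma adjusted p = 0.133), with 0.34 in set A and 0.85 in set B. The call depended on the setting. Without WT library 1 the log2 change was 1.09 (limma adjusted p = 0.00268), and with a term for the data-derived library sets it was 0.59 (limma adjusted p = 0.00764). Quantile normalization of all 6 libraries gave 0.93 (limma adjusted p = 0.0378). With any other single library left out Sparc did not pass (limma adjusted p = 0.175 to 0.371). WT library 1 stood apart in these same data, and leaving it out took the limma calls over all genes from 729 to 2228. A pass without that library is therefore not particular to Sparc, or to Fbln2 and Fbn1 below.

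Thrombospondin-1 (Thbs1, chromosome 2), which can free TGF-beta from its latent complex and inhibits angiogenesis, had 44.4, 80.8 and 45.1 normalized counts in Nbr1KO libraries 1 to 3, against 54.7, 103 and 94.4 in WT libraries 1 to 3. In both groups the set A libraries were the lower ones, and the groups overlapped. The means were 56.7 ± 20.8 in Nbr1KO and 84.1 ± 25.9 in WT (SD, n = 3 each). The log2 change was -0.57 with a 95% interval of -1.38 to 0.25 (limma adjusted p = 0.399), and it was -0.28 in set A and -0.29 in set B. Without WT library 1 it was -0.85 (limma adjusted p = 0.0719). The estimate for Thbs1 was thus below 0 in each of these subsets, and the call was not reached.

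Fibronectin (Fn1, chromosome 1), the adhesive glycoprotein on which fibrillin, fibulins and collagens assemble, differed least. It had 2352, 2237 and 2576 normalized counts in Nbr1KO libraries 1 to 3, against 2624, 2425 and 2467 in WT libraries 1 to 3. The 6 libraries were interleaved. The log2 change was -0.07 with a 95% interval of -0.34 to 0.20 (limma adjusted p = 0.777), so a change of Fn1 as wide as that of Eln or Fbln5 lies outside this interval. Its ranks among all genes were 58, 58 and 53 in the Nbr1KO libraries and 50, 52 and 49 in the WT libraries.

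Elastin (Eln, chromosome 5), the monomer of the elastic core, had 76.9, 49.8 and 55.8 normalized counts in Nbr1KO libraries 1 to 3, against 10.7, 21.8 and 10.9 in WT libraries 1 to 3. The lowest Nbr1KO library was above the highest WT library by more than the whole WT range. The means were 60.9 ± 14.2 in Nbr1KO and 14.5 ± 6.38 in WT (SD, n = 3 each), 4.21-fold apart, and Eln rose by 2.05 on the log2(value + 1) scale (SE 0.34, limma adjusted p = 0.0171). Within set A the difference was 2.51 and within set B 1.63. Only 46 reads in all stand behind the WT mean, against 190 in Nbr1KO, and leaving out 1 library ended the call in 4 of 6 cases. The limma adjusted p was then 0.102 without Nbr1KO library 1, 0.0529 without Nbr1KO library 2, 0.0793 without Nbr1KO library 3 and 0.0668 without WT library 3.

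Fibulin-5 (Fbln5, chromosome 12), which binds elastin, integrins and lysyl oxidase-like enzymes and is needed for elastic fibre assembly in mice, separated with the least scatter. It had 414, 456 and 446 normalized counts in Nbr1KO libraries 1 to 3, against 98.7, 104 and 118 in WT libraries 1 to 3. The spread within each group was small beside the gap between them. The means were 438.5 ± 21.95 in Nbr1KO and 107 ± 9.96 in WT (SD, n = 3 each), 4.10-fold apart, and Fbln5 rose by 2.03 on the log2 scale (SE 0.14, 95% interval 1.70 to 2.36, limma adjusted p = 0.000792). It was 2.11 in set A and 2.03 in set B. Genes of chromosome 12 had a median log2 change of 0.32, and with that median removed Fbln5 still rose by 1.71 (limma adjusted p = 0.00141).

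Fibulin-2 (Fbln2, chromosome 6), a larger fibulin that binds fibrillin-1 and tropoelastin, had 651, 638 and 604 normalized counts in Nbr1KO libraries 1 to 3, against 543, 389.7 and 420.4 in WT libraries 1 to 3. The groups did not overlap, and the gap between them was smaller than the spread among the WT libraries. The log2 change was 0.50 (SE 0.16, 95% interval 0.12 to 0.87, limma adjusted p = 0.121), with 0.21 in set A and 0.65 in set B. It passed without WT library 1, at 0.64 (limma adjusted p = 0.00852), and with a term for the data-derived library sets, at 0.43 (limma adjusted p = 0.0293). It also passed with chromosome medians removed, at 0.75 (limma adjusted p = 0.0411), since genes of chromosome 6 had a median log2 change of -0.25. With any library other than WT library 1 left out, Fbln2 did not pass (limma adjusted p = 0.230 to 0.380).

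Fibrillin-1 (Fbn1, chromosome 2), the main microfibril protein and a store of latent TGF-beta and BMPs, had 168, 143 and 187.5 normalized counts in Nbr1KO libraries 1 to 3, against 175, 86.5 and 119 in WT libraries 1 to 3. WT library 1 lay above Nbr1KO libraries 1 and 2, so the groups overlapped. The log2 change was 0.44 with a 95% interval of -0.21 to 1.09 (limma adjusted p = 0.413), and it was 0.02 in set A and 0.49 in set B. Without WT library 1 it was 0.70 (limma adjusted p = 0.0450). With any other single library left out Fbn1 did not pass (limma adjusted p = 0.403 to 0.768). The whole gene spans, introns included, of 5 members (Tnc, Fn1, Thbs1, Eln and Fbn1) overlap a gene on the opposite strand in the GENCODE vM21 annotation. Whether the overlaps reach the 3' ends counted here was not examined. None of those partners had a row of its own. Without stated use of strand in the counting, reads from any shared counted stretch could not be told apart.

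**Figure D2:**
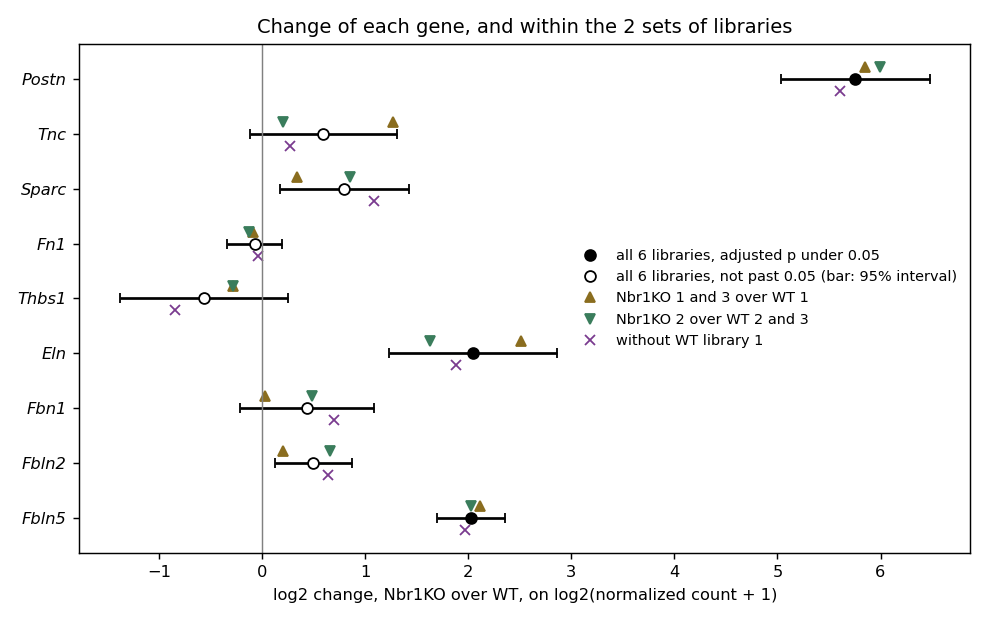
Log2 change on log2(normalized count + 1) of each of the 9 genes, Nbr1KO over WT (horizontal axis), with 95% limma intervals as bars and filled points for an adjusted p under 0.05. Triangles give the values within set A (up) and set B (down), and crosses those without WT library 1. The Postn, Eln and Fbln5 values lie far right of 0 in all of these, Fn1 sits close to 0, and Sparc, Fbn1 and Fbln2 move right when WT library 1 is left out.

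Summed, the 9 genes held 11700, 10313 and 12885 normalized counts in Nbr1KO libraries 1 to 3, against 10069, 6763 and 6876 in WT libraries 1 to 3. That was 0.603, 0.527 and 0.659% of all reads in the Nbr1KO libraries and 0.5003, 0.338 and 0.348% in the WT libraries. The groups did not overlap in the sum, but WT library 1 came close to Nbr1KO library 2. Sparc alone made up 66.5, 62.3 and 67.8% of the sum in the Nbr1KO libraries, against 64.8, 52.7 and 51.8% in the WT libraries, so the sum mostly followed Sparc. Exact 95% intervals, for counting error only, reached at most 0.0124 points either side of the shares of all reads and 1.13 points either side of the Sparc shares. Without Sparc and Fn1, the other 7 genes summed to 1573, 1653 and 1571 in the Nbr1KO libraries, against 921, 776 and 844 in the WT libraries, and WT library 1 then stood well below all Nbr1KO libraries. The 4 elastic fibre genes Eln, Fbn1, Fbln2 and Fbln5 gave 1309.9, 1286 and 1293 normalized counts in the Nbr1KO libraries, against 827, 602 and 668 in the WT libraries.

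Their order by level was the same at the top in both groups, with Sparc above Fn1 and Fn1 above Fbln2 in all 6 libraries. In the Nbr1KO libraries Fbln5 came next, then Fbn1 and Postn, whose ranges overlapped, then Tnc, and last Eln and Thbs1, whose ranges also overlapped. In the WT libraries Fbn1, Fbln5, Thbs1 and Tnc followed as neighbours whose ranges overlapped, with Eln below them and Postn lowest. Postn ranked 3478, 2374 and 3525 among all genes in Nbr1KO libraries 1 to 3, against 12423, 12342 and 11939 in WT libraries 1 to 3, and Fbln5 ranked 956, 790 and 866 in the Nbr1KO libraries against 4330, 4427 and 3956 in the WT libraries.

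Ratios between members were also taken within each library. There were 63.6, 71.4 and 73.9 Fbln5 reads per 100 Fbln2 reads in Nbr1KO libraries 1 to 3, against 18.2, 26.7 and 28.1 in WT libraries 1 to 3. Elastin stood at 45.7, 34.9 and 29.7 reads per 100 Fbn1 reads in the Nbr1KO libraries, against 6.11, 25.2 and 9.16 in the WT libraries. Neither ratio overlapped between the groups. For Eln the nearest libraries, Nbr1KO 3 and WT 2, were close and rest on 47 and 26 Eln reads. The estimated log2 change was larger for Fbln5 (2.03) than for Fbln2 (0.50), and for Eln (2.05) than for Fbn1 (0.44). These differences between changes were not tested, and no share of such ratios over other gene pairs is given. Sparc stood at 3.31, 2.87 and 3.39 reads per Fn1 read in the Nbr1KO libraries, against 2.49, 1.47 and 1.45 in the WT libraries, with no overlap either. These ratios are taken within a library and do not depend on its scaling factor.

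Relatives and partners of the 9 were taken from 5 lists with no member in them, 70 tested genes in all, of which 15 changed. Over all 10540 tested genes, 4.67% were called higher and 2.25% lower, and these shares apply beside each list count below. Among other matricellular proteins, 10 of 24 listed genes were tested, 3 rose and 1 fell, with a median log2 change of 0.45. Thrombospondin-2 (Thbs2), a second inhibitor of angiogenesis, had 39.8, 48.1 and 47.5 normalized counts in Nbr1KO libraries 1 to 3, against 4.00, 2.52 and 8.17 in WT libraries 1 to 3, a log2 rise of 3.08 (limma adjusted p = 0.00647). Thbs2 thus rose where Thbs1 did not pass, and the difference between both changes was not tested. Tgfbi, the closest relative of periostin, had 55.2, 47.3 and 53.4 normalized counts in the Nbr1KO libraries, against 9.34, 11.8 and 9.99 in the WT libraries (log2 2.22, limma adjusted p = 0.00258). Fstl1, a secreted SPARC-family glycoprotein, rose by 0.93 on the log2 scale (limma adjusted p = 0.0261). Osteopontin (Spp1) fell by 1.29 on the log2 scale, with 29.0, 27.5 and 33.2 normalized counts in the Nbr1KO libraries and 78.7, 69.7 and 75.4 in the WT libraries (limma adjusted p = 0.0101).

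Among elastic fibre and microfibril partners, 18 of 26 listed genes were tested, 5 rose and 0 fell in limma, and the log2 change was positive in 17 of the 18 with a median of 0.79. That tally leaves out fibulin-3 (Efemp1), a fibulin relative on the same list that missed the filter on low values and ran the other way. Efemp1 had 0, 0.86 and 0 normalized counts in Nbr1KO libraries 1 to 3, against 8.005, 66.3 and 80.8 in WT libraries 1 to 3, with WT library 1 far below the other WT libraries. Its 1 read in the Nbr1KO libraries against 174 in the WT libraries gave a WT over Nbr1KO ratio of 178, with an exact 95% counting interval of 31.5 to 7069, and with no filter its log2 change was -4.90 (limma adjusted p = 0.0178). The lysyl oxidases join elastin and collagen chains. Loxl1, one of those that fibulin-5 binds, had 102, 118 and 101 normalized counts in Nbr1KO libraries 1 to 3, against 13.3, 18.5 and 19.1 in WT libraries 1 to 3, a log2 rise of 2.60 (limma adjusted p = 0.00150). Loxl1 did not overlap between groups, and it was called with each library left out in turn. Lox was the most abundant of the list, with 2205, 1797 and 2340 normalized counts in the Nbr1KO libraries, against 1227, 831 and 806 in the WT libraries (log2 1.16, limma adjusted p = 0.0187). Latent TGF-beta binding proteins bind fibrillin, and some of them, though not all, tie TGF-beta to it. Ltbp1 rose by 1.87 (limma adjusted p = 0.00211), with 203, 251 and 180.4 normalized counts in the Nbr1KO libraries and 53.4, 55.4 and 60.8 in the WT libraries, and Ltbp2 rose by 2.56 (limma adjusted p = 0.0128), with only 5 reads over the WT libraries. Hemicentin-1 (Hmcn1), a fibulin-family matrix protein, had 64.3, 59.3 and 57.0 normalized counts in the Nbr1KO libraries, against 8.0, 5.88 and 2.72 in the WT libraries (log2 3.32, limma adjusted p = 0.00366). Fibulin-4 (Efemp2), which works beside fibulin-5 in elastic fibre assembly in mice, did not pass, at a log2 change of 0.22 (limma adjusted p = 0.440).

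Of 18 listed cell surface receptors of the 9, 9 were tested, 1 rose and 0 fell. Itgb5, whose product pairs with the alpha-v integrin chain to bind periostin and fibulin-5, had 132, 114 and 133 normalized counts in Nbr1KO libraries 1 to 3, against 69.4, 55.4 and 44.5 in WT libraries 1 to 3 (log2 1.17, limma adjusted p = 0.0216). Its partner chain Itgav did not pass, with an estimate of the opposite sign, -0.92 on the log2 scale (limma adjusted p = 0.0757). Of 21 listed proteases, 14 were tested, 3 rose and 0 fell. Stromelysin-1 (Mmp3), which cuts fibronectin and other matrix proteins, had 109, 86.0 and 99.7 normalized counts in the Nbr1KO libraries, against 12.01, 5.88 and 5.45 in the WT libraries (log2 3.57, limma adjusted p = 0.00180). The secreted serine protease Htra3 rose by 3.11 (limma adjusted p = 0.00130), and Tll1, a tolloid-type processing enzyme, by 1.997 (limma adjusted p = 0.0258). Of 20 TGF-beta signalling genes, all tested, 3 rose (Ltbp1, Smad4 and Pmepa1) and 0 fell, with a median log2 change of 0.07. Smad4, the common SMAD, rose by 0.82 (limma adjusted p = 0.0112), and Pmepa1, a target that restrains the pathway, by 0.70 (limma adjusted p = 0.0413). Of the 15 genes named as changed here, Thbs2, Tgfbi, Hmcn1, Loxl1, Ltbp1, Mmp3 and Htra3 were called with each of the 6 libraries left out in turn. Spp1 was lost in 2 of those 6, Fstl1 and Lox in 4, and Itgb5, Ltbp2, Pmepa1, Smad4 and Tll1 in 5, and Fstl1, Lox, Itgb5 and Smad4 were also lost once chromosome medians were removed. Thbs2, Hmcn1, Ltbp2 and Tll1 had no WT value reaching 10 and met the filter only through the Nbr1KO libraries. Tgfbi, Mmp3 and Htra3 reached 10 in fewer than 3 WT libraries, so they too needed the Nbr1KO libraries to be tested.

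**Figure D3:**
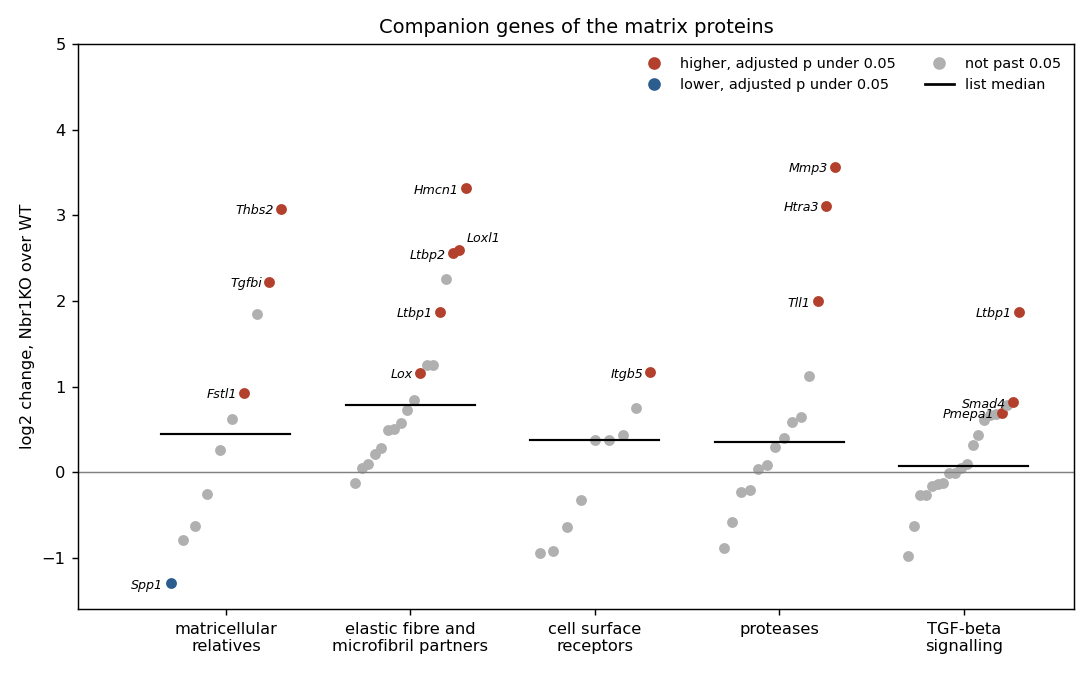
Log2 change, Nbr1KO over WT, on the vertical axis, of every tested gene of the 5 companion lists, with horizontal lines at the list medians. Named red points are genes higher and the named blue point (Spp1) a gene lower at a limma adjusted p under 0.05, and grey points did not pass. The elastic fibre and microfibril partners lie mostly above 0, with 17 of 18 tested positive, while the TGF-beta signalling genes centre near 0. Of those partners, Hmcn1, Ltbp2 and Fbn2 met the filter only through the Nbr1KO libraries, and Efemp1, lower in Nbr1KO and below the filter, is not drawn.

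Markers of other cell types and states were read beside these results, and their part in them was not tested. Of 12 markers of activated stellate cells or myofibroblasts, 9 rose, against 4.67% of all tested genes called higher. The 12 summed to 17219 to 20526 normalized counts in the Nbr1KO libraries and 7558 to 9063 in the WT libraries. Acta2, Tagln, Col1a1 and Cnn1 were called with each of the 6 libraries left out in turn. Myl9 was lost in 1 of those 6, Pdgfrb in 3, Lox in 4, and Col1a2 and Timp1 in 5. Quiescent stellate markers did not run opposite to the activated markers, with 2 of 8 tested higher (Hand2 and Lhx2) and 0 lower. Of 17 listed, 10 had a row, with sums of 4832 to 4914 in the Nbr1KO libraries and 2792 to 3627 in the WT libraries. Dcn made up most of these sums, with 3973, 4090 and 3911 in the Nbr1KO libraries and 2131, 3055 and 2875 in the WT libraries. Dcn was not called (limma adjusted p = 0.0802), and Gfap was at most 3.56 in any library. Eln and Fbln2 are themselves used as markers of portal fibroblasts. Of the other portal fibroblast markers, 3 were tested and 2 rose, Thy1 by 3.13 (limma adjusted p = 0.00408) and Cd248 by 1.89 (limma adjusted p = 0.0493), while Cd34 stood at a log2 change of -0.74 (limma adjusted p = 0.186). The Cd248 call was lost with 5 of 6 single libraries left out, in edgeR (adjusted p = 0.0516) and with chromosome medians removed (limma adjusted p = 0.0507), and those of Hand2 and Lhx2 were also lost in 5 of 6. Sums of these portal fibroblast markers overlapped, 218 to 293 in the Nbr1KO libraries and 175 to 380.2 in the WT libraries. Smooth muscle and pericyte markers summed to 128 to 233 in the Nbr1KO libraries and 26.9 to 44.0 in the WT libraries, with Lmod1 and Mylk higher among 3 tested. Lmod1 had 0 reads in the WT libraries and met the filter only through the Nbr1KO libraries, as did Tagln, Cnn1 and Thy1. Mylk, and Cdh1 below, reached 10 in WT library 1 but not in WT libraries 2 and 3, so they too needed the Nbr1KO libraries. Cholangiocyte markers summed to 571 to 635 in the Nbr1KO libraries and 91.5 to 112 in the WT libraries, carried by Sox9 and Cdh1, which rose, while the third tested marker, Spp1, fell, and Krt7 was at most 11.2 in any library. Mesothelial markers were on the lower side, 1404 to 1763 in the Nbr1KO libraries and 1889 to 2389 in the WT libraries, with 1 of 8 tested called lower (Upk3b). Hepatocyte markers summed to 389 to 451 in the Nbr1KO libraries and 131 to 151 in the WT libraries, carried by Trf, while Alb was at most 17.2 in the Nbr1KO libraries and 26.3 in the WT libraries. Endothelial and macrophage markers were near 0, with sums of at most 12.9 and 29.2 in the Nbr1KO libraries and 9.99 and 16.0 in the WT libraries. Lrat, Reln, Des, Epcam, Pecam1, Cdh5, Ptprc and Adgre1 were not analysed here.

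The genes whose profile over the 6 libraries was most like that of a member were found by the root mean square difference of log2 values, each gene centred on its own mean, over 10182 genes. For Postn they were Col4a6, with a difference of 0.261, and Grb10, with 0.346. Col4a6, a chain of basement membrane collagen, had 63.4, 68.8 and 39.2 normalized counts in Nbr1KO libraries 1 to 3, against 0, 0 and 0.91 in WT libraries 1 to 3. Grb10, an adaptor of insulin receptor signalling, was as strongly split, with 654, 676 and 733 in the Nbr1KO libraries and 13.3, 15.1 and 25.4 in the WT libraries. For Eln the nearest were Card6 (0.229) and Socs2 (0.246), and for Fbln5 Trf (0.0816) and Vldlr (0.0909). Likeness here rests on 6 points that differ mainly by group.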

How the data were processed

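The deposited table holds 13341 gene symbols by 6 libraries, per the file headers. Per the labels' protocols, libraries were made with a QuantSeq 3' forward kit with optional molecular identifiers. The submitters' processing notes name DESeq2 and GRCm39. The aligner, the annotation, and any use of strand or identifiers are not given in the sources used here. Normalized count signal deposited by the authors was in whole multiples of 1 read (100% of values, tolerance 0.01), so reads were recovered. The lowest row summed to 9 reads over the 6 libraries.

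From these values, 10540 genes reaching 10 in 3 or more libraries were tested two-sided with limma 3.58.1 (R 4.3.3), variance trend, on log2(value + 1), with Benjamini-Hochberg adjustment at 0.05. edgeR 4.0.16 and DESeq2 1.42.0 on recovered reads called 766 and 951 genes, against 729 in limma. The limma and edgeR steps were tried on simulated counts with the same dispersion for every gene and no library sets. That trial checks the steps only and does not cover the spread seen between these libraries. Exact binomial 95% intervals cover counting error only. Other alternatives changed the pseudocount, filter, scaling, trend, replicate block, library sets, chromosome medians and single libraries.

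The 9 genes and all lists were chosen with earlier results of these data known. Named were the 9, up to 4 called genes per companion list with the smallest p (all 5 for the elastic fibre partners), markers that moved beside them, and the 2 nearest profiles per called member. Promoters come from RefSeq GRCm38.p6, and no coordinates were converted. Protein sequences were not used here. Of a gene with no row, nothing can be said here beyond that it was not analysed.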

Additional observations from a re-analysis of the deposited data

How the results depend on the processing

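Postn and Fbln5 passed in all 18 alternative settings run, with log2 changes of 4.52 to 6.31 for Postn and 1.71 to 2.10 for Fbln5. Fn1 and Thbs1 passed in 0 of the 18, and no value named for the 9 genes changed sign with a call. With a term for the library sets, 6 of the 9 genes were called higher in Nbr1KO (Tnc, Sparc and Fbln2 joining), against 3 in the results. The sets were read from these same values, so the calls with that term, here and over all genes, add no support. Leaving out single libraries gave 2 to 6 of the 9. Quantile normalization also called Sparc, at 0.93 (limma adjusted p = 0.0378). Eln was not tested where a mean of at least 50 was asked for. Over all genes, 492 were called higher and 237 lower. A mean of at least 50 gave 241 higher and 139 lower, the term for library sets 1503 higher and 1288 lower, and leaving out single libraries 146 to 1277 higher and 54 to 951 lower. Of the companion genes, 39 were called with the term for library sets and 7 to 29 with single libraries left out, against 15. The highest of each of these ranges was reached without WT library 1. The cause was not tested. Same-numbered libraries deviated from their group means with correlations of 0.45, 0.70 and -0.62. Deviations within groups of 3 follow the library sets, so these values cannot show whether the numbers mark a pairing. The replicate block called 349 genes higher and 127 lower, and kept Postn, Fbln5 and Eln, the last at 2.05 with a limma adjusted p of 0.0402. WT levels of Postn and Eln rest on 6 and 46 reads.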

Other observations

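Among the CCN matricellular genes, Ccn1 and Ccn2, known targets of YAP, were split by the library sets, which were themselves read from these data. Ccn2 was at 2.67 to 9.49 normalized counts in set A (Nbr1KO libraries 1 and 3 and WT library 1) and at 65.4 to 121 in set B (Nbr1KO library 2 and WT libraries 2 and 3). Ccn1 was at 73.3 to 78.7 in set A and 174 to 259.5 in set B. The other CCN genes measured were not split this way. Ccn3 was low throughout, at 1.33 to 6.34 in set A and 0 to 6.02 in set B. Ccn4 did not overlap between the genotype labels, with 428, 354 and 412 in Nbr1KO libraries 1 to 3 and 292, 237 and 243 in WT libraries 1 to 3 (log2 0.63, limma adjusted p = 0.0577).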
